A study of Mus musculus with 16 samples.

Results

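Transcripts of 10 cytotoxic granule and natural killer genes (Prf1, Gzma, Gzmb, Gzmk, Nkg7, Ncr1, Klrd1, Klrk1, Tbx21 and Eomes) were followed in epididymal white adipose tissue (eWAT) of diabetic mice that received an AAV8 vector for LRG1 or for eGFP. The genes were taken as a given list of symbols and matched through the Ensembl identifiers of the count table, where all 10 were found among 55573 genes. The mice were C57BLKS/J-db/db males, which lack a working leptin receptor and become obese and diabetic. Each of the 4 groups held 4 mice with 1 library per mouse, so 16 in all: AAV8-LRG1-FL at week 7, AAV8-eGFP at week 7, AAV8-LRG1-FL at week 10 and AAV8-eGFP at week 10. The weeks are the age of the mice, which received the vector at 4 weeks of age. Both vectors carried the CB7 promoter, which is not restricted to a cell type, and the LRG1 carried a FLAG tag at its C-terminus. No group without virus and none without the db mutation was analysed here, and eWAT RNA is a mixture of adipocytes, vessels and immune cells.

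Cytotoxic lymphocytes, which are CD8 T cells, natural killer (NK) cells and some other innate lymphoid cells, kill by releasing granules. Perforin opens the membrane of the target cell, and granzymes, which are serine proteases, enter and cleave proteins that keep it alive. NK cells decide whether to release their granules by weighing activating and inhibitory receptors, and the T-box factors T-bet and eomesodermin drive the expression of much of this machinery. In obese visceral fat of mice, CD8 T cells and NK cells are known to accumulate and to produce interferon-gamma.

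The labels were checked first. Lrg1 averaged 346 ± 88.8 CPM in LRG1 libraries and 103 ± 11.2 CPM in eGFP libraries at week 7, and 461 ± 142 CPM in LRG1 libraries and 106 ± 6.22 CPM in eGFP libraries at week 10 (SD, n = 4 each). CPM are counts in every 1000000 counts of a library, after scaling of the library totals by the trimmed mean of M values (TMM). Reads of the vector and of the endogenous gene cannot be told apart in this value. Library totals ran from 45376227 to 67539937 counts. The 6 adipocyte markers summed to 12710 to 15840 CPM in LRG1 libraries and 9774 to 10290 CPM in eGFP libraries at week 7, and to 15080 to 16470 CPM in LRG1 libraries and 6448 to 14480 CPM in eGFP libraries at week 10. In contrast, 7 markers of epididymis and testis summed to 1.25 CPM in eGFP replicate 3 of week 10 and to at most 0.196 CPM in every other library. That replicate also had the lowest library total and the lowest TMM factor, 0.847. The share of counts in mitochondrial ribosomal RNA was 29.2 ± 1.51% in LRG1 libraries and 25.0 ± 0.864% in eGFP libraries at week 7, and its part in the results was not tested. With all mitochondrially encoded genes left out of the fit, the same 8 of the 10 genes were called at week 7.

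Among eGFP libraries of week 10, replicates 1 and 3 stood apart from replicates 2 and 4. Their 6 pan-leukocyte markers summed to 1672 and 1786 CPM, against 552 and 714 CPM in replicates 2 and 4, and their adipocyte markers to 6448 and 7662 CPM, against 14480 and 13590 CPM. The 15 T cell markers did not split in this way, at 29.4 and 40.3 CPM in replicates 1 and 3 and 35.9 and 44.9 CPM in replicates 2 and 4. All results were therefore also fitted without these 2 libraries, an alternative chosen after seeing the data. It called 161 genes at week 10, 74 of them lower in LRG1 eWAT, against 1854 and 1092 with all libraries.

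The 10 genes lie on 7 chromosomes of GRCm38 and all are annotated as protein coding. Prf1, the perforin gene, spans chr10:61297833-61304680. Of the granzyme genes, Gzma at chr13:113093825-113100981 and Gzmk at chr13:113171608-113225908 lie close together and encode proteases that cleave after basic residues, whereas Gzmb at chr14:56258838-56262260 encodes the protease that cleaves caspases. Nkg7, which encodes a granule membrane protein that takes part in degranulation, lies at chr7:43437073-43438249. The activating receptor gene Ncr1 (NKp46) is at chr7:4337724-4345164. Klrd1 (CD94, the partner of the NKG2 receptors) at chr6:129591782-129598775 and Klrk1 (NKG2D, an activating receptor for stress ligands) at chr6:129610323-129623864 belong to the NK gene complex. Tbx21 (T-bet) is at chr11:97098071-97115331 and Eomes (eomesodermin) at chr9:118478212-118486132. The exons of Eomes overlap those of the antisense gene Gm33460 by up to 118 bases. The strand setting of the counting is not given in the sources used here, so reads from that stretch cannot be told apart.

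Promoter windows of 300 bases, from 250 before to 50 after the start, were found for 9 of the 10 genes in RefSeq (GRCm38.p6). Motifs of 3 factor families that act in killer cells were searched on both strands, with no overlap between their matches: the RUNX core TGTGGT, the T-box site GGTGTGA and the STAT site TTCNNNGAA. The RUNX core was in 6 of the 9 windows (Klrk1, Ncr1, Nkg7, Prf1, Gzma and Gzmb) and in 16.8% of all 32851 windows. The T-box site was in Nkg7 and Gzmk, against 3.98% of all windows, and the STAT site in Nkg7 and Gzmb, against 8.30%. A match is a string of letters and not a bound site. The 150 bases before the start are shown for genes with a RUNX or T-box match there, to set 5 genes that were called at week 7 (Prf1, Gzma, Gzmb, Nkg7 and Klrk1) beside Gzmk and Ncr1, which did not pass the test. The RefSeq start used here can differ from that of the counted gene. The stretch of Gzmk lies inside the gene span given above, and those of Nkg7 and Prf1 run past the gene start given above. Capitals mark the RUNX and T-box matches.
Prf1, chr10:61297686-61297835, plus strand: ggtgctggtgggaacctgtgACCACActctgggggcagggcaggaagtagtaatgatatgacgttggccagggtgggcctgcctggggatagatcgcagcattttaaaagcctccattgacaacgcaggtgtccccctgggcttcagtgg
Gzma, chr13:113100982-113101131, minus strand: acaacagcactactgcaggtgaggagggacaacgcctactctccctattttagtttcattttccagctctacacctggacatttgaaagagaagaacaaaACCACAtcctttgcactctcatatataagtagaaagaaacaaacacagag
Gzmb, chr14:56262335-56262484, minus strand: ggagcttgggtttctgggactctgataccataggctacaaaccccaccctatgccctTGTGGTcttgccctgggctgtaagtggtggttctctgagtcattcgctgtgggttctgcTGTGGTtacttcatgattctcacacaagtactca
Gzmk, chr13:113180966-113181115, minus strand: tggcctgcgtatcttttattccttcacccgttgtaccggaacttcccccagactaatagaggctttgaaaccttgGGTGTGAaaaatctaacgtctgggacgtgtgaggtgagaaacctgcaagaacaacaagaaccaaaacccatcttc
Nkg7, chr7:43436988-43437137, plus strand: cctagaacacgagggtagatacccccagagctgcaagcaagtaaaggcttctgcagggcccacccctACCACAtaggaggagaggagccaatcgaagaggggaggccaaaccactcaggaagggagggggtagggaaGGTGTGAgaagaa
Klrk1, chr6:129623865-129624014, minus strand: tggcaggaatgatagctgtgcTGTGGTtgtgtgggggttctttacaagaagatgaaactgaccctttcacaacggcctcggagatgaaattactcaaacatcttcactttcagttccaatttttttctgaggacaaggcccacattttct
Ncr1, chr7:4337574-4337723, plus strand: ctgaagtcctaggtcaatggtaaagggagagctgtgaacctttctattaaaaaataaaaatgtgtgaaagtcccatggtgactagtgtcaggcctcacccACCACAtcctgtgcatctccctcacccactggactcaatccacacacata

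At week 7, 8 of the 10 genes fell in LRG1 eWAT relative to eGFP eWAT (edgeR quasi-likelihood test, Benjamini-Hochberg adjusted p below 0.01), where 10.7% of the 20822 genes tested were called lower. Gzmb fell the most, Gzma the least, and Gzmk and Ncr1 did not pass. The median log2 fold change of the 10 was -2.35, and that of all genes tested was 0.00587. With scaling by library size alone the same 8 genes were called, while all genes tested had a median of -0.152, with 3636 called lower and 341 higher, against 2221 lower and 1534 higher with TMM. In 9 of the 10 genes all 4 LRG1 libraries lay below all 4 eGFP libraries, as did 19.4% of all genes tested. In a bulk tissue, fewer cells of a type and less RNA per cell cannot be told apart.

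Of the 5 granule genes, Prf1 and Nkg7 had the smallest p-values. Prf1 was at 0.923, 1.35, 0.650 and 1.38 CPM in LRG1 libraries, against 13.2, 11.01, 4.66 and 9.84 CPM in eGFP libraries. The lowest eGFP library was still above the highest LRG1 library by more than the whole LRG1 range. The fall was 8.995-fold (log2 fold change -3.17, SE 0.36, adjusted p = 1.7e-05 by edgeR). Nkg7 was at 0.477, 1.54, 0.357 and 0.482 CPM in LRG1 libraries, against 12.1, 10.3, 5.08 and 10.2 CPM in eGFP libraries. Again the groups were apart, and 1 LRG1 mouse, replicate 2, stood above its group. Nkg7 fell 13.2-fold (log2 fold change -3.72, SE 0.42, adjusted p = 1.4e-05 by edgeR).

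The 3 granzymes differed from each other. Gzmb was at 0.255, 1.22, 0.130 and 0.276 CPM in LRG1 libraries, against 11.9, 9.19, 3.56 and 7.84 CPM in eGFP libraries. It fell 17.4-fold with a wide error (log2 fold change -4.12, SE 0.74, adjusted p = 0.00075 by edgeR), and LRG1 replicate 2 was again the highest of its group. Gzma was at 2.01, 2.52, 1.82 and 2.98 CPM in LRG1 libraries, against 5.57, 4.49, 3.86 and 5.03 CPM in eGFP libraries. The groups did not overlap, yet the fall was only 2.03-fold (log2 fold change -1.02, SE 0.23, adjusted p = 0.0032 by edgeR). The call on Gzma was lost without eGFP replicate 1 (adjusted p = 0.013), LRG1 replicate 1 (0.012) or LRG1 replicate 3 (0.015). Gzmk was at 0.302, 1.69, 0.0325 and 0.103 CPM in LRG1 libraries, against 3.69, 4.04, 2.36 and 4.20 CPM in eGFP libraries. All LRG1 values were below all eGFP values, but they spread over more than an order of magnitude, and the test did not pass (log2 fold change -2.75, SE 0.84, adjusted p = 0.021 by edgeR). Without LRG1 replicate 2 the difference was -4.58 and was called (adjusted p = 0.0015).

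**Figure D1:**
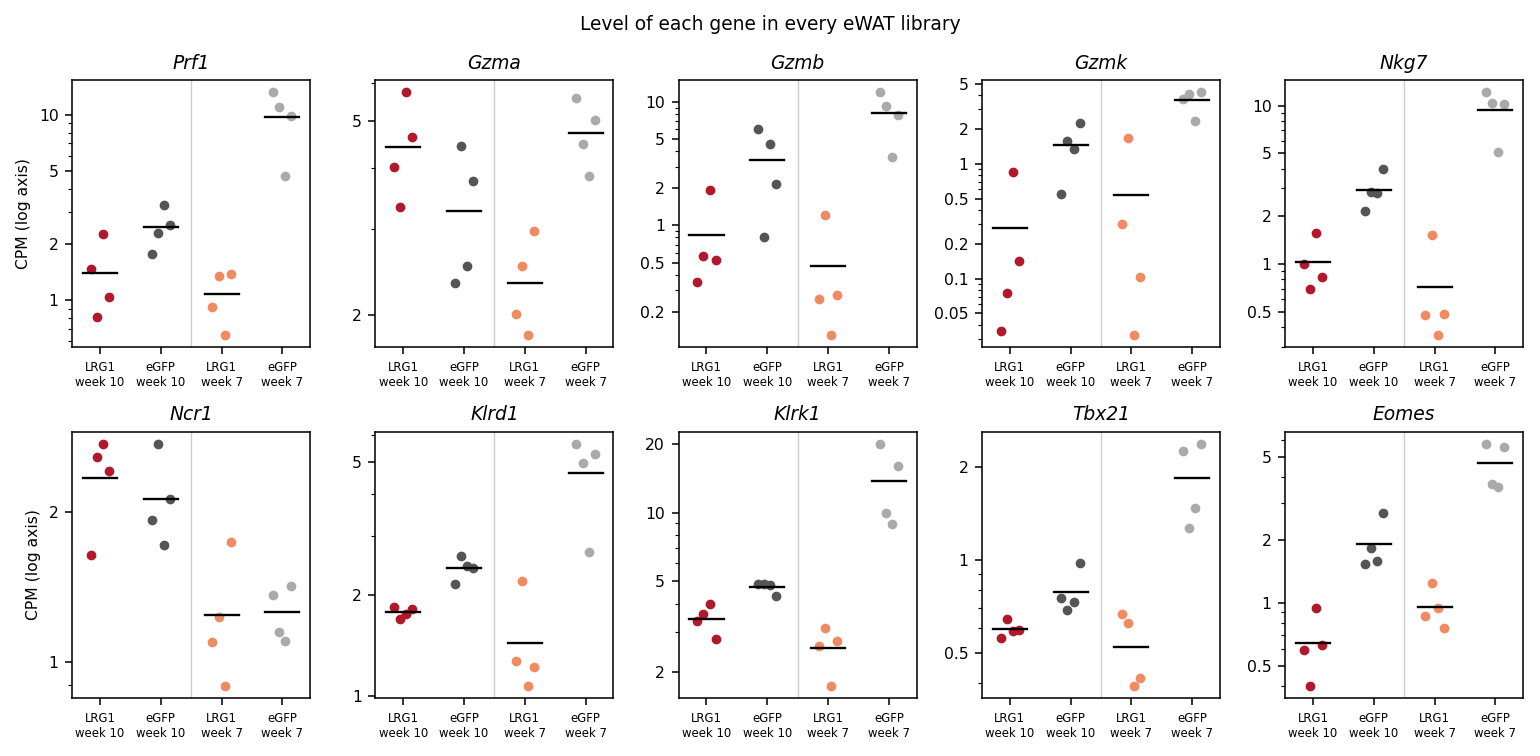
Level of each of the 10 genes in every library, in TMM-scaled CPM on a log axis. Each point is 1 mouse, bars are means of 4 mice, and LRG1 stands left of eGFP within each week. At week 7 the groups do not overlap in 9 genes, and in Ncr1 they overlap, at 0.893 to 1.74 CPM in LRG1 and 1.10 to 1.42 CPM in eGFP.

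Of the receptors, Klrk1 and Klrd1 fell and Ncr1 did not pass. Klrk1 had the smallest p-value of the 10 genes. It was at 2.61, 3.14, 1.74 and 2.74 CPM in LRG1 libraries, against 20.01, 9.998, 8.88 and 15.97 CPM in eGFP libraries. The fall was 5.36-fold (log2 fold change -2.42, SE 0.23, adjusted p = 3.2e-06 by edgeR). Klrd1 was at 1.27, 2.21, 1.07 and 1.22 CPM in LRG1 libraries, against 5.65, 4.94, 2.68 and 5.27 CPM in eGFP libraries. It fell 3.20-fold, with the highest LRG1 library, replicate 2, just below the lowest eGFP library (log2 fold change -1.68, SE 0.23, adjusted p = 1e-04 by edgeR).

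Ncr1, which marks NK cells and innate lymphoid cells related to them and is scarce in most T cells, stood apart. It was at 1.10, 1.23, 0.893 and 1.74 CPM in LRG1 libraries, against 1.36, 1.15, 1.10 and 1.42 CPM in eGFP libraries. The groups overlapped, and both the lowest and the highest of the 8 values were in LRG1 mice. Its log2 fold change was -0.02 (SE 0.22, adjusted p = 0.96 by edgeR), with a 95% interval of 0.710-fold to 1.37-fold. The interval leaves out falls of the size of Gzma or larger, and its counts of 55 to 101 per library were within the range of Tbx21, whose fall was called. Prf1 ran at 0.727 to 1.10 times the Ncr1 level in LRG1 libraries and at 4.23 to 9.70 times in eGFP libraries. For Gzma the ratio was 1.71 to 2.04 in LRG1 libraries and 3.50 to 4.09 in eGFP libraries.

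Both T-box factors fell at week 7. Tbx21 was at 0.668, 0.625, 0.390 and 0.414 CPM in LRG1 libraries, against 2.25, 1.27, 1.47 and 2.38 CPM in eGFP libraries (3.50-fold lower, log2 fold change -1.81, SE 0.25, adjusted p = 7.7e-05 by edgeR). Eomes was at 0.859, 1.25, 0.942 and 0.758 CPM in LRG1 libraries, against 5.76, 3.71, 3.57 and 5.56 CPM in eGFP libraries (4.87-fold lower, log2 fold change -2.28, SE 0.27, adjusted p = 2.1e-05 by edgeR). LRG1 replicate 2, the highest of its group for 6 of the 10 genes, was in the middle of its group for Tbx21.

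**Figure D2:**
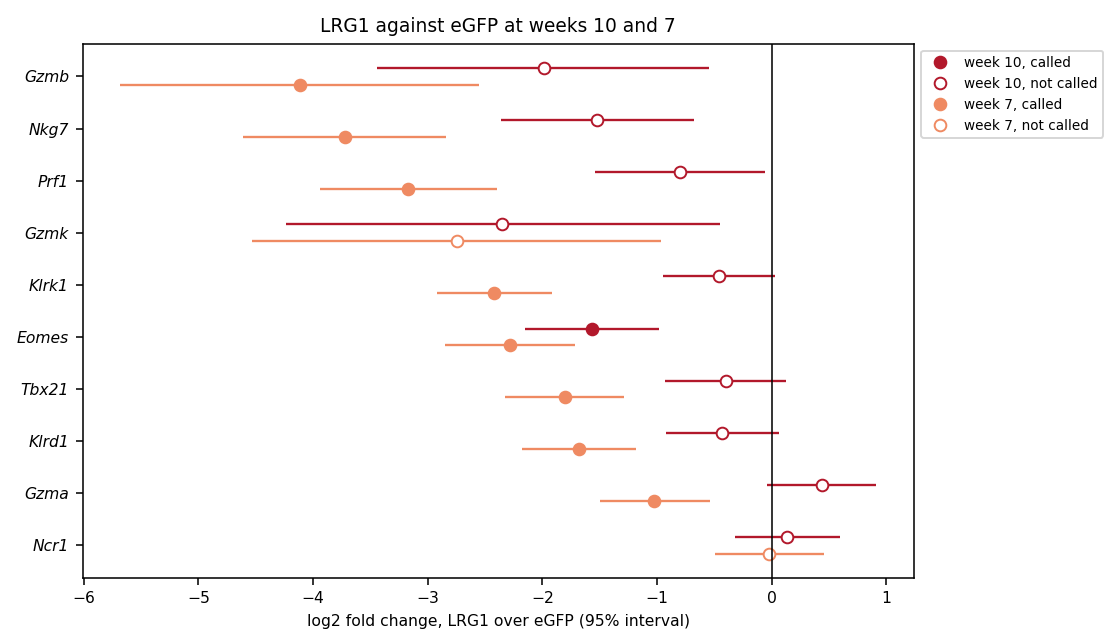
Log2 fold change of LRG1 over eGFP for each gene at week 10 and week 7 (x axis), with 95% intervals of the edgeR fit as bars and filled points for genes called at an adjusted p below 0.01. At week 7 the values run from -4.12 (Gzmb) to -0.02 (Ncr1), and at week 10 only Eomes, at -1.57, is filled.

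The make-up of the granzymes was compared per kilobase of gene length, as a share of the sum of Gzma, Gzmb and Gzmk. At week 7 Gzma made up 83.5%, 54.8%, 94.1% and 91.8% in LRG1 libraries, against 33.5%, 32.4%, 47.9% and 37.1% in eGFP libraries. Per kilobase, all LRG1 libraries thus carried more Gzma than the other 2 granzymes together, and no eGFP library did. In CPM without the gene length this did not hold for LRG1 replicate 2, with Gzma at 2.52, Gzmb at 1.22 and Gzmk at 1.69 CPM. Gzmb was 9.16 ± 6.36% of the 3 in LRG1 libraries and 42.1 ± 8.47% in eGFP libraries (SD, n = 4 each). At week 10 Gzma made up 74.5% to 93.7% in LRG1 libraries and 33.6% to 72.1% in eGFP libraries, so the highest eGFP library was just below the lowest LRG1 library.

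**Figure D3:**
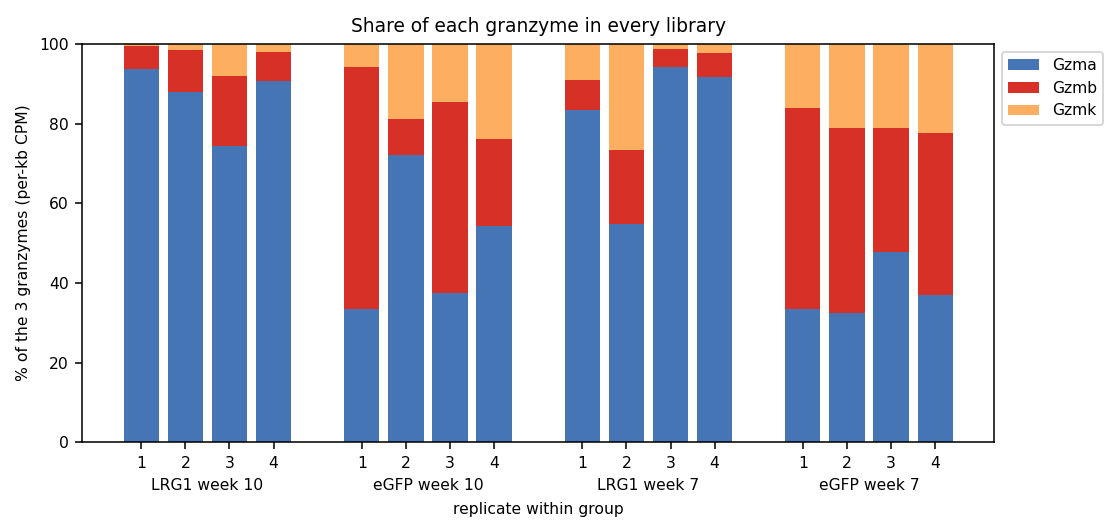
Share of Gzma, Gzmb and Gzmk in the sum of the 3, in percent of CPM per kilobase, with 1 bar for each library and LRG1 left of eGFP within each week. Gzma holds 54.8% or more in every LRG1 library at week 7 and 47.9% or less in every eGFP library at week 7.

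Across genes, levels per kilobase gave a different order in the groups at week 7. In LRG1 eWAT Gzma led with 2.32 ± 0.521 CPM per kilobase, followed by Klrd1 with 1.13 ± 0.404 and Ncr1 with 0.806 ± 0.234, and Tbx21 was the lowest with 0.211 ± 0.0574. In eGFP eWAT Nkg7 led with 10.3 ± 3.31 CPM per kilobase, followed by Gzmb with 5.67 ± 2.44 and Gzma with 4.71 ± 0.731, and Ncr1 with 0.817 ± 0.102 and Tbx21 with 0.740 ± 0.222 were the lowest and overlapped. In that order Ncr1 was number 3 of the 10 in LRG1 eWAT and number 9 in eGFP eWAT, at 0.806 and 0.817 CPM per kilobase.

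At week 10 only Eomes was called lower in LRG1 eWAT, where 5.24% of all genes tested were called lower. The median log2 fold change of the 10 genes was -0.63, and that of all genes was -0.00469. Eomes was at 0.594, 0.398, 0.947 and 0.631 CPM in LRG1 libraries, against 1.53, 1.83, 1.59 and 2.70 CPM in eGFP libraries. The groups were apart and the fall was 2.96-fold (log2 fold change -1.57, SE 0.28, adjusted p = 0.0021 by edgeR). Without eGFP replicates 1 and 3 the difference was -1.81 and Eomes was again the 1 gene called (adjusted p = 0.0063). The call was lost in a fit of the 8 libraries of week 10 alone (adjusted p = 0.035) and without LRG1 replicate 4 (0.011).

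Nkg7 came closest among the others, at 0.996, 0.701, 1.57 and 0.829 CPM in LRG1 libraries, against 2.18, 2.84, 2.81 and 3.98 CPM in eGFP libraries. The groups did not overlap, yet the adjusted p was 0.013 by edgeR (log2 fold change -1.52, SE 0.40), while DESeq2 gave 0.001. Nkg7 was also called when the LRG1 library of week 7, replicate 2, was left out of the fit (adjusted p = 0.004). Prf1 was at 1.47, 0.815, 2.29 and 1.05 CPM in LRG1 libraries, against 1.78, 2.30, 3.28 and 2.53 CPM in eGFP libraries, and these overlapped (log2 fold change -0.80, SE 0.35, adjusted p = 0.11 by edgeR). Gzmk was at 0.0349, 0.0758, 0.849 and 0.144 CPM in LRG1 libraries, against 0.552, 1.60, 1.35 and 2.29 CPM in eGFP libraries. LRG1 replicate 3 lay inside the eGFP range, and the difference of -2.35 had an SE of 0.89 (adjusted p = 0.069 by edgeR).

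None of the 5 granule genes was called at week 10 by edgeR or limma-voom, while DESeq2 called 1 and 4 had an unadjusted p below 0.05 by edgeR. Of all 20822 genes tested, DESeq2 called 3510 at week 10, and 7634 had an unadjusted p below 0.05 by edgeR. Gzma had the one positive log2 fold change of the 5. It was at 4.02, 3.34, 5.73 and 4.63 CPM in LRG1 libraries, against 2.33, 4.45, 2.52 and 3.78 CPM in eGFP libraries. The groups overlapped and the difference did not pass (log2 fold change 0.44, SE 0.23, adjusted p = 0.17 by edgeR, and 0.11 on the log2 scale without eGFP replicates 1 and 3). For the receptors Klrk1 and Klrd1 and the factor Tbx21 the groups were close but did not overlap. Klrk1 was at 2.79 to 3.97 CPM in LRG1 libraries and 4.30 to 4.89 CPM in eGFP libraries. Klrd1 was at 1.70 to 1.85 CPM in LRG1 libraries and 2.16 to 2.62 CPM in eGFP libraries, and Tbx21 at 0.559 to 0.644 CPM in LRG1 libraries and 0.688 to 0.978 CPM in eGFP libraries. In all, 5 of the 10 genes had every LRG1 library below every eGFP library, as did 10.1% of all genes tested. Their adjusted p-values were 0.16 for Klrk1, 0.19 for Klrd1 and 0.26 for Tbx21 by edgeR. Ncr1 was at 1.64 to 2.74 CPM in LRG1 libraries and 1.72 to 2.74 CPM in eGFP libraries (log2 fold change 0.14, SE 0.22, adjusted p = 0.69 by edgeR).

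Gzmb varied most among eGFP mice at week 10, with a coefficient of variation of 69.1%. It was at 0.349, 0.569, 1.93 and 0.523 CPM in LRG1 libraries, against 6.01, 0.806, 4.58 and 2.16 CPM in eGFP libraries (log2 fold change -1.99, SE 0.68, adjusted p = 0.046 by edgeR). Mouse mast cells can also express granzyme B, and 10 mast cell markers were therefore set beside it. They summed to 41.0, 37.9, 36.3 and 34.9 CPM in LRG1 libraries, against 455, 57.9, 509 and 126 CPM in eGFP libraries. Gzmb and the mast cell markers were higher in eGFP replicates 1 and 3, the libraries that stood apart in pan-leukocyte and adipocyte markers, than in replicates 2 and 4. Without these 2 libraries the log2 fold change of Gzmb was -0.80 (SE 0.71, adjusted p = 0.61 by edgeR). None of the mast cell markers was at 0 in all libraries of a group. All 10 were called lower in LRG1 eWAT at week 10 by edgeR and by DESeq2, against 1 by limma-voom and 3 by edgeR without the 2 libraries. At week 7 none was called by edgeR, DESeq2 or limma-voom. Of the 10, 1 had an unadjusted p below 0.05 by edgeR at week 7, against 8803 of all 20822 genes tested. At that week the mast cell markers summed to 36.1 to 44.9 CPM in LRG1 libraries and 54.0 to 91.6 CPM in eGFP libraries. Their part in the level of Gzmb was not tested.

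**Figure D4:**
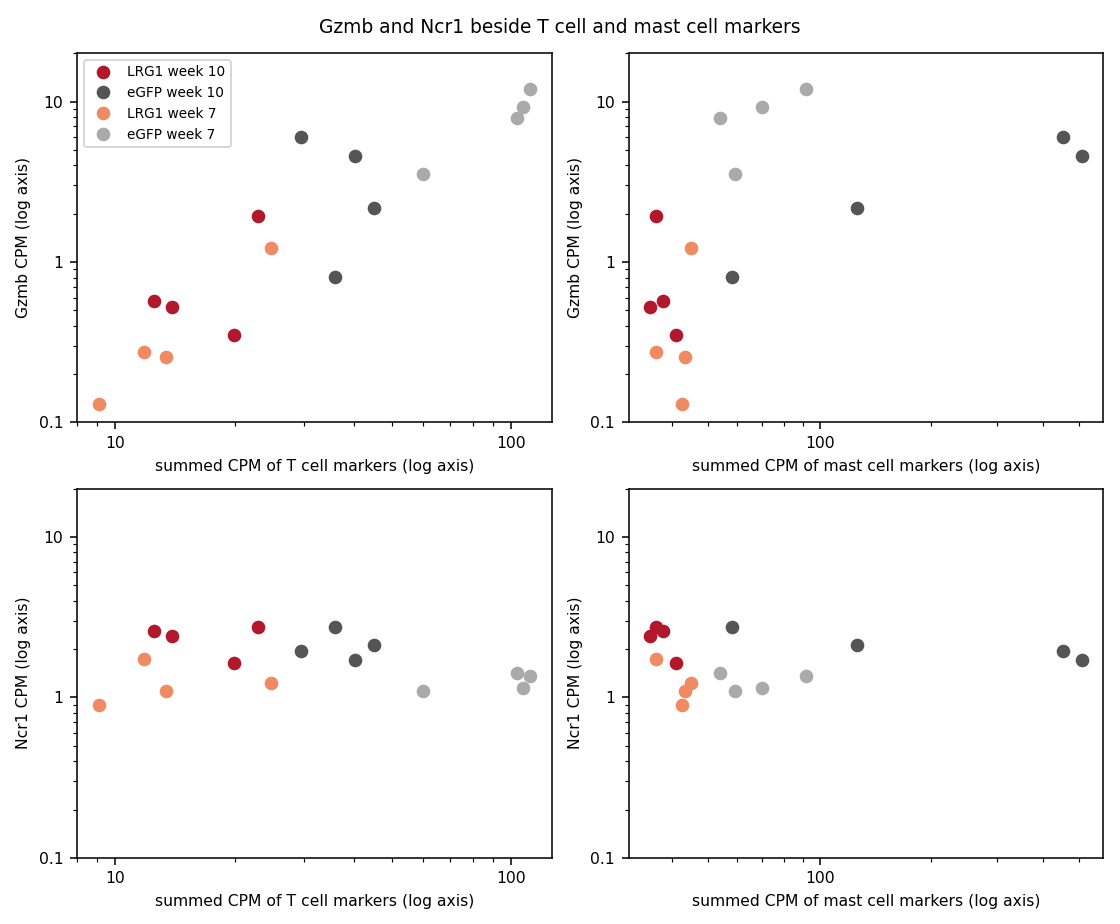
Gzmb (top) and Ncr1 (bottom), in CPM, against the summed CPM of 15 T cell markers (left) and 10 mast cell markers (right), all on log axes, with 1 point for each library coloured by group. The 4 eGFP libraries of week 7 hold the highest T cell sums, at 59.8 to 112 CPM, and 2 eGFP libraries of week 10 hold the highest mast cell sums, at 455 and 509 CPM.

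Whether the effect of LRG1 differed between the weeks was tested as a difference of the 2 log2 fold changes, week 10 minus week 7. Only Klrk1 was called, at 1.96 (SE 0.32, adjusted p = 0.0063 by edgeR), where 0.327% of all genes were called in either direction. Prf1 was at 2.37 (adjusted p = 0.028), Gzma at 1.46 (0.037), Tbx21 at 1.41 (0.073), Nkg7 at 2.205 (0.084) and Klrd1 at 1.25 (0.099). DESeq2 called 4 of the genes, adding Prf1, Gzma and Nkg7. The call on Klrk1 was lost by limma-voom (adjusted p = 0.04). It held without eGFP replicate 1, 2 or 3 or LRG1 replicate 2 of week 7, or LRG1 replicate 4 of week 10, and was lost without any one of the other 11 libraries, where its adjusted p was at most 0.02. Prf1 was called as well without eGFP replicate 3 of week 7 (adjusted p = 0.007), and Nkg7 without LRG1 replicate 2 of week 7 (0.0037). For the other genes a difference between the weeks was not shown, although the calls differed.

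The weeks were also compared within each vector. In eGFP eWAT 4 genes fell by week 10 (Klrk1, Prf1, Tbx21 and Eomes), where 1.51% of all genes were called lower. Prf1 averaged 2.47 ± 0.623 CPM at week 10 and 9.68 ± 3.62 CPM at week 7, a 3.93-fold fall (log2 fold change -1.98, SE 0.34, adjusted p = 0.003 by edgeR). Klrk1 averaged 4.72 ± 0.281 CPM at week 10 and 13.7 ± 5.22 CPM at week 7 (log2 fold change -1.54, SE 0.23, adjusted p = 0.00087 by edgeR). Tbx21 and Eomes fell 2.33-fold (adjusted p = 0.0065) and 2.42-fold (0.0076). In 7 genes the 4 libraries of week 10 lay below those of week 7, as in 6.89% of all genes tested. In Ncr1 they lay above, at 1.72 to 2.74 CPM at week 10 and 1.10 to 1.42 CPM at week 7, as in 4.08% of all genes (log2 fold change 0.76, SE 0.22, adjusted p = 0.054 by edgeR). None of the 4 calls held in a fit of the 8 eGFP libraries alone (adjusted p = 0.016 to 0.047), and only Klrk1 was called without the eGFP mouse of week 7 with the highest level of 7 genes, replicate 1. The calls on Tbx21 and Eomes were both lost as well without eGFP replicate 4 of week 7, any one of eGFP replicates 1 to 3 of week 10 or LRG1 replicate 1 of week 10. Eomes also lost its call in further fits that left out 1 library. Of 27 alternatives at the threshold of 0.01, Eomes was called in 13, Tbx21 in 18, Prf1 in 24 and Klrk1 in 26. Without eGFP replicates 1 and 3 of week 10 together, Klrk1 and Prf1 were called and Tbx21 (adjusted p = 0.017) and Eomes (0.023) were not. Without eGFP replicate 3 or LRG1 replicate 2 of week 7, Nkg7 and Klrd1 were called too, for 6 genes.

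In LRG1 eWAT none of the 10 genes was called between the weeks by edgeR, DESeq2 or limma-voom, and 0.00961% of all genes were called by edgeR. At an unadjusted p below 0.05 by edgeR, 2 of the 10 genes passed, both higher at week 10. Of all 20822 genes tested, 1746 passed in either direction. Gzma was at 3.34 to 5.73 CPM at week 10 and 1.82 to 2.98 CPM at week 7 with no overlap, as in 3.64% of all genes tested (log2 fold change 0.93, SE 0.23, adjusted p = 0.24 by edgeR). Ncr1 was at 1.64 to 2.74 CPM at week 10 and 0.893 to 1.74 CPM at week 7 (log2 fold change 0.92, SE 0.22, adjusted p = 0.22 by edgeR). The eGFP libraries of week 10 entered both the comparison with LRG1 and that with week 7, so these values are not independent. Set in order, eGFP at week 7 had the highest mean of the 4 groups in 9 genes, and the 2 LRG1 groups were neighbours that overlapped in 8 genes. Ncr1 alone had the 2 groups of week 10 on top, which overlapped, and the 2 groups of week 7 below, which overlapped as well.

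Genes that take part in the killing machinery were read from lists, and the eWAT cells that express them were not told apart. At week 7 the 13 genes of granule assembly and release had a mean sum of 2441 CPM in LRG1 libraries and 3007 CPM in eGFP libraries. The 5 granule genes among the 10 had a mean sum of 5.12 CPM in LRG1 libraries and 35.6 CPM in eGFP libraries. The counts of these and the later lists stand beside 10.7% of all genes tested called lower at week 7 and 5.24% at week 10. Without eGFP replicates 1 and 3 of week 10, 74 of all genes were called lower at that week, against 1092 with all libraries. Of 13 genes of granule assembly and release, 8 fell at week 7 (median of the list -0.76), among them Ctsc, whose product activates granzymes, at -1.31 (SE 0.13, adjusted p = 4.1e-06), Cst7 at -2.40 (SE 0.33, 8.4e-05) and Unc13d, which primes granules for fusion, at -1.58 (SE 0.31, 0.0014). At week 10, 5 of the 13 fell, with Unc13d at -1.63 (SE 0.31, adjusted p = 0.0031), and none without eGFP replicates 1 and 3 of that week. Of 8 death ligand and cytokine genes 6 fell at week 7, with Ccl5 at -3.84 (SE 0.33, adjusted p = 9.6e-07), Ifng at -5.37 (SE 0.68, 4.5e-05) and Fasl at -2.89 (SE 0.40, 9.9e-05), and 4 fell at week 10, or 1 without those 2 libraries. Ifng had a mean of only 0.0300 CPM in LRG1 libraries, against 1.29 CPM in eGFP libraries. Of the 3 granzyme inhibitor genes, Serpinb9 (-0.87, SE 0.16, adjusted p = 0.001) and Serpinb6b (-1.13, SE 0.27, 0.0057) fell at week 7 and Serpinb9b fell at week 10 (-5.90, SE 1.04, 0.0022). Serpinb9b was at 0.588 to 1.93 CPM in LRG1 libraries of week 10, against 169.3, 2.22, 169.5 and 7.84 CPM in eGFP libraries, so that 2 eGFP mice were far above the others. Without these mice its log2 fold change was -1.78 (adjusted p = 0.035), and limma-voom did not call it (adjusted p = 0.11). Of the other granzymes, 5 of 7 were too low to be tested. Gzme and Gzmm were tested and did not pass by edgeR, DESeq2 or limma-voom at either week, nor at an unadjusted p below 0.05, with Gzmm at -0.05 at week 7 (SE 0.35, adjusted p = 0.93).

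Receptor genes were counted in the same way, and again the cells that express them were not told apart. Of 17 other killer cell lectin-like receptor genes tested, 8 fell at week 7 and none was called at week 10 by edgeR. At week 7 Klrc2 was at -2.71 (SE 0.25, adjusted p = 1.7e-06) and Klrc1, the inhibitory partner of CD94, at -2.78 (SE 0.38, 7.6e-05). Klra3 at -1.89 and Klra9 at -3.20 are Ly49 genes, a family of close copies between which reads can be split, so their single values are uncertain. Klrb1c, an NK cell receptor gene, was at -0.26 (SE 0.40, adjusted p = 0.66), with 0.381 ± 0.241 CPM in LRG1 libraries and 0.458 ± 0.210 CPM in eGFP libraries. At week 10 the lowest adjusted p-values of the 17 by edgeR were 0.031 for Klra17 and 0.048 for Klra3. Of the 17, 3 genes had an unadjusted p below 0.05 by edgeR, against 7634 of all 20822 genes tested. Neither DESeq2 nor limma-voom called any of the 17. Of these 17 genes Klrc2 alone was called for the difference between the weeks, at 2.30 (adjusted p = 0.0028). Of 19 other activating receptor and adaptor genes, 15 fell and 1 rose at week 7, where 7.37% of all genes tested were called higher. Those that fell included Zap70 at -3.54 (SE 0.38, adjusted p = 9.6e-06) and Hcst, the adaptor that NKG2D signals through, at -2.31 (SE 0.28, 2.9e-05). Pik3r1, a phosphoinositide kinase subunit gene used in many cell types, rose (0.48, SE 0.11, 0.0034). At week 10, 7 of the 19 fell and Pik3r1 rose again, among 3.66% of all genes called higher, while 2 were called lower and none higher without eGFP replicates 1 and 3 of week 10. In the test of the difference between the weeks edgeR called none of the 19, while DESeq2 called 4 and limma-voom none. Of the 19, 7 had an unadjusted p below 0.05 by edgeR, against 1953 of all 20822 genes tested. DESeq2 called 268 of all genes for this difference. Of 7 ligand genes tested for NKG2D, CD94 and CD226, H2-T23, which encodes the ligand of CD94 with NKG2A, fell at both weeks (-1.996, SE 0.16 at week 7, adjusted p = 6e-07), joined by Ulbp1 at week 7 and by Raet1e at week 10. None of these ligand genes was called at week 10 without eGFP replicates 1 and 3.

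Of 15 genes of cytokine receptors and signalling, 11 fell at week 7 and 2 at week 10, or none without eGFP replicates 1 and 3 of week 10. Il2rb, a subunit of the interleukin-2 and interleukin-15 receptors, was at 3.51 ± 0.561 CPM in LRG1 libraries and 25.5 ± 7.75 CPM in eGFP libraries at week 7 (log2 fold change -2.86, SE 0.22, adjusted p = 2.9e-07). Its log2 fold change at week 10 was -0.53 (SE 0.21, adjusted p = 0.076) and its difference between the weeks was called (2.33, adjusted p = 0.00074). Of 12 other transcription factor genes tested, 6 fell at week 7 and 2 at week 10, or 1 without those 2 libraries. Tox was at -5.01 at week 7 (SE 0.32, adjusted p = 5.8e-08) and Runx3, which encodes a RUNX factor of cytotoxic cells, at -1.61 (SE 0.35, 0.0027). Tox was also called for the difference between the weeks. All these lists were chosen with earlier results of the data known.

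**Figure D5:**
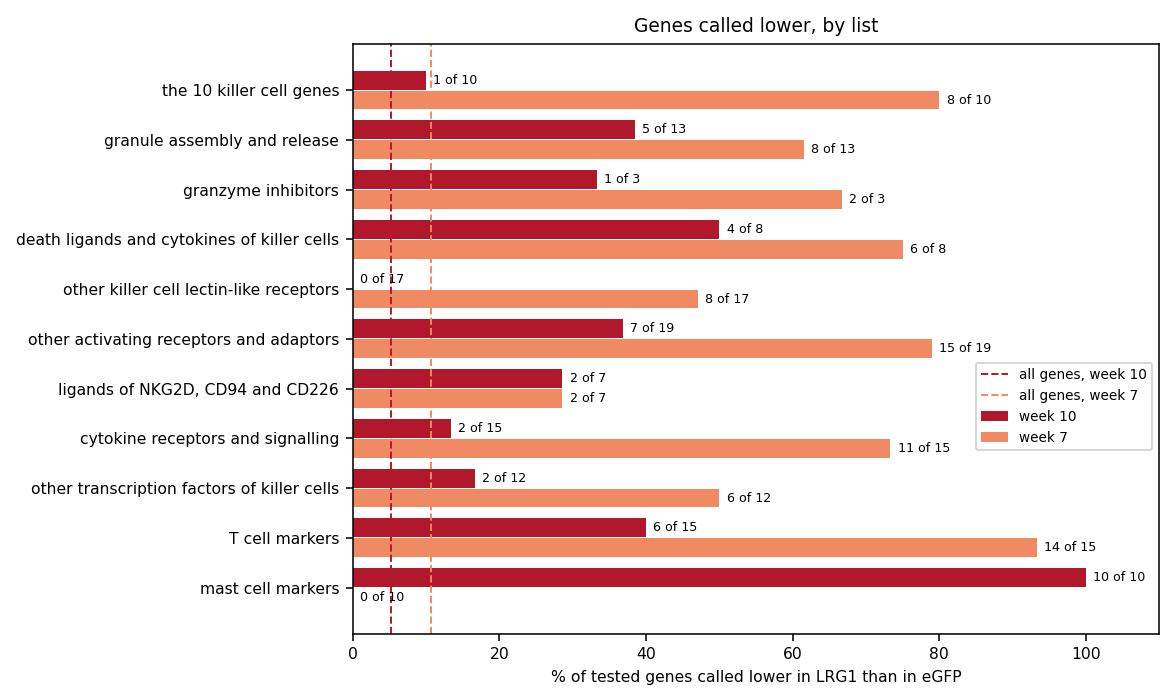
Percent of the tested genes of each list called lower in LRG1 than in eGFP eWAT (x axis) at week 10 and week 7, with the number of genes beside each bar and dashed lines at the share of all genes called lower, 5.24% and 10.7%. The 10 killer cell genes have 1 call at week 10 and 8 at week 7, T cell markers 6 and 14 of 15, and mast cell markers 10 and 0 of 10.

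Markers of other cell types were counted beside the 10 genes. Of 15 T cell markers, 14 fell at week 7 and 6 at week 10, or none without eGFP replicates 1 and 3 of week 10. They summed to 9.06 to 24.7 CPM in LRG1 libraries and 59.8 to 112 CPM in eGFP libraries at week 7, and to 12.5 to 22.9 CPM in LRG1 libraries and 29.4 to 44.9 CPM in eGFP libraries at week 10. None was at 0 in all libraries of a group. Cd3e, part of the T cell receptor complex, was at 0.291 ± 0.226 CPM in LRG1 libraries and 6.76 ± 1.78 CPM in eGFP libraries at week 7. Ncr1 ran at 1.97 to 11.2 times the level of Cd3e in LRG1 libraries and at 0.160 to 0.222 times in eGFP libraries at week 7. For Gzmb that ratio overlapped, at 0.889 to 1.95 in LRG1 libraries and 0.718 to 1.63 in eGFP libraries, and for Gzmk it overlapped too. For Prf1, Gzma, Nkg7, Klrd1, Klrk1, Tbx21 and Eomes it was higher in every LRG1 library than in every eGFP library, as for Ncr1. The ratio of Nkg7 was 2.0 to 3.11 in LRG1 libraries and 1.03 to 1.83 in eGFP libraries. That of Gzma was 4.03 to 19.2 in LRG1 libraries and 0.568 to 0.794 in eGFP libraries. These ratios depend on the choice of Cd3e, which had only 15, 37, 9 and 9 counts in LRG1 libraries at week 7. The 15 T cell markers had a mean sum of 14.8 CPM in LRG1 libraries and 95.7 CPM in eGFP libraries at that week. The ratio to Cd3e therefore need not hold for T cell transcripts as a set, and ratios to the sum were not computed. The highest T cell sum among LRG1 mice was in replicate 2 at week 7 and in replicate 3 at week 10, which were also the highest of their group for Gzmb, Gzmk and Nkg7. The 6 pan-leukocyte markers all fell at both weeks, and so did 7 of 8 macrophage markers, whereas at week 10 none of the 6 and 4 of the 8 were called without eGFP replicates 1 and 3. The pan-leukocyte markers summed to 305 to 426 CPM in LRG1 libraries and 1006 to 1247 CPM in eGFP libraries at week 7. Taken per Ptprc, a gene of that list, Prf1, Gzmb, Nkg7 and Klrk1 were lower in every LRG1 library than in every eGFP library at week 7. Gzmk, Klrd1, Tbx21 and Eomes overlapped, with Klrd1 at 0.0119 to 0.0181 in LRG1 and 0.00943 to 0.0168 in eGFP libraries. Gzma and Ncr1 were higher in every LRG1 library, with Gzma at 0.0206 to 0.029 in LRG1 and 0.0135 to 0.0162 in eGFP libraries. The part of these cells in the levels of the 10 genes was not tested.

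Of 6 genes listed for gamma-delta T and NKT cells 1 fell at week 7, against 10.7% of all genes. The list held Cd1d1, which encodes a molecule that NKT cells recognise and is not a marker of these cells. The gene that fell was Tcrg-C2 (log2 fold change -4.12, SE 0.40, adjusted p = 3.2e-06), which was also called for the difference between the weeks, whereas Trdc was at -0.21 (SE 0.40, adjusted p = 0.74). The close copies of Tcrg constant genes can share reads. Of 8 innate lymphoid cell markers, Cxcr6 (-2.85, SE 0.28, adjusted p = 3e-06) and Il7r (-1.44, SE 0.30, 0.002) fell at week 7, and they fell together with Il1rl1 at week 10, when none was called without eGFP replicates 1 and 3. No B cell marker of 6 was called at either week by edgeR, DESeq2 or limma-voom, and none had an unadjusted p below 0.05. Of all 20822 genes tested, 8803 at week 7 and 7634 at week 10 had an unadjusted p below 0.05 by edgeR. Of 6 plasmacytoid dendritic cell markers Bst2 and Pacsin1 fell at week 7, and of 4 neutrophil markers Csf3r fell at week 7 and S100a9 and Cxcr2 at week 10, against 10.7% and 5.24% of all genes. Limma-voom called none of the 4 at week 10, nor did edgeR without eGFP replicates 1 and 3. Neutrophil markers summed to 36.2 to 82.9 CPM in LRG1 libraries of week 10, against 147, 21.4, 256 and 82.1 CPM in eGFP libraries.

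The tested genes with a profile most like the mean of the 10 over the 16 libraries were found by the root mean square distance between standardized log2 CPM, where 0 is the same shape. Clone names, immunoglobulin genes and genes of T cell receptor chains were left out of the search, so none of these could appear. The 8 nearest were Serpina3f (0.194), Ccl5 (0.216), Sh2d2a (0.223), Lck (0.226), Il2rb (0.228), Zap70 (0.233), Erap1 (0.254) and Tox (0.256), each at a mean of 1 CPM or more. Of the 10 genes, Nkg7 was the nearest to that mean profile (0.195), Gzma was at 0.775 and Ncr1 at 1.39. The single gene nearest to each was Lck for Nkg7 (0.120), Parp14 for Klrk1 (0.162) and for Tbx21 (0.260), Gbp3 for Prf1 (0.221), Ms4a4b for Klrd1 (0.260), Dusp2 for Eomes (0.266), Ube2l6 for Gzmb (0.275), Cxcr3 for Gzmk (0.402), Fam174b for Ncr1 (0.539) and Ifit2 for Gzma (0.562). The distances of Gzma and Ncr1 were the longest, so for these 2 genes no close match was found. All these are descriptions over the same 16 libraries, which share the 2 contrasts.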

How the data were processed

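RNA of eWAT from 16 mice was sequenced by the authors, who trimmed reads with Cutadapt, aligned them to mm10 (GRCm38) with STAR and deposited whole-number counts per Ensembl gene from featureCounts; versions, strand and multi-mapping settings are not given in the sources used here. Groups were taken from the labels, and 55394 of 55573 identifiers were matched to a symbol. Counts were filtered by filterByExpr (20822 genes kept, all 10 members among them), scaled by TMM and fitted with the edgeR quasi-likelihood test (edgeR 4.0.16, R 4.3.3), with 1 coefficient for each group over all 16 libraries and Benjamini-Hochberg adjustment over all genes tested. A call was an adjusted p below 0.01. Profiles used log2 CPM with a prior count of 2. SE and 95% intervals are from the same fit, with the SE taken from the log2 fold change and the F statistic. The calls of the fit were tested on simulated data, while the SE and the intervals were not. Levels of different genes were compared per kilobase of the deposited summed exon length.

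The 10 members and all lists were chosen with earlier results of these data known. Besides the members and Lrg1, a list's genes were named by rule (up to 4 with the smallest p at week 7, up to 2 more at week 10, and any needed to account for a count), and similar profiles as the 8 nearest genes at a mean of 1 CPM or more. Clone names, immunoglobulin genes and T cell receptor chain genes were left out of that search. Klrb1c, Trdc and Runx3 fell outside the rule and were chosen after their values were seen. The values of 1 gene that the rule gave are not reported here.

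Alternatives were DESeq2 1.42.0, limma-voom (limma 3.58.1), RLE, upper quartile and library size scaling, no filter, at least 1 CPM in 4 libraries, only the 8 libraries compared, no mitochondrially encoded genes, a threshold of 0.05, a replicate block, leaving out each library, and leaving out eGFP replicates 1 and 3 of week 10 together, which was chosen after seeing the data. Libraries are separate mice, and within groups their log counts correlated at 0.961 to 0.985. Total counts of 45376227 to 67539937 limit the precision for genes under 1 CPM.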

Additional observations from a re-analysis of the deposited data

Results flagged for a closer look

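In 6 of the 40 sets of 4 libraries (10 genes in 4 groups), 1 library lay apart from its group by Dixon's test for 4 values. Chance does so in about 1 in 20 sets of independent normal values. The 10 genes were read in the same mice, so the 40 sets are not independent and the 2 rates cannot be compared. Of the 6 values that lay apart, 5 were in the LRG1 groups and were high. LRG1 replicate 2 of week 7 was at 1.22 CPM for Gzmb, 1.69 CPM for Gzmk and 1.54 CPM for Nkg7, and LRG1 replicate 3 of week 10 was at 1.93 CPM for Gzmb and 0.849 CPM for Gzmk. The same mice had the highest sums of the 15 T cell markers in their groups, 24.7 CPM in replicate 2 of week 7 and 22.9 CPM in replicate 3 of week 10, and the part of T cells in these levels was not tested. For Klrk1, eGFP replicate 4 of week 10 stood below its group at 4.30 CPM. The change of the LRG1 effect on Klrk1 between the weeks, at 1.963 on the log2 scale, was the only one of the 10 that edgeR's test of the difference itself called.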

How the results depend on the processing

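At week 7 the number of the 10 genes called stayed between 7 and 9 under every alternative run, against 8 in the main analysis, and in LRG1 mice 0 were called between the weeks under each of them. The smaller counts moved. At week 10, against 1 call, DESeq2 and the fit without a filter gave 2, the 8 libraries of that week alone gave 0, a threshold of 0.05 gave 3, and leaving out 1 library gave 0 to 2. For the difference between the weeks, against 1 call, DESeq2 gave 4, limma-voom 0, no filter 2, a threshold of 0.05 gave 3, and leaving out 1 library gave 0 to 2. For the weeks in eGFP mice, against 4 calls, DESeq2 gave 6, limma-voom, no filter and library size scaling 5, a threshold of 0.05 gave 6, the 8 eGFP libraries alone gave 0, and leaving out 1 library gave 1 to 6. A fit of 8 libraries has fewer samples to estimate the spread from, and for the other changes the cause was not tested.

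Libraries with the same replicate number did not deviate together from their group means (24 pairs, median r -0.0126, from -0.2 to 0.142), and the labels give no shared origin for a number, so the numbers were not read as pairs. With the replicate number as a block, 1 gene (Klrk1) was called between the weeks in eGFP mice and 0 for the difference between the weeks, where Klrk1 had an adjusted p of 0.018 by edgeR. The block changed no other call among the 10 genes.

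The sign of 2 genes depended on the processing, and neither was called in those comparisons. Ncr1 at week 7 was at 0.037 with upper quartile scaling and between -0.23 and 0.11 when 1 library was left out. Gzmk was between -1.31 and 2.23 for the difference between the weeks, and between -2.61 and 0.93 for the weeks in LRG1 mice, with the ends set by leaving out LRG1 replicate 3 of week 10 and LRG1 replicate 2 of week 7. Without eGFP replicates 1 and 3 of week 10, an alternative chosen after seeing the data, Ncr1 was at -0.051 at week 10 and at -0.030 for the difference, and Gzmk at -0.017 for the difference. That fit called 9 genes at week 7 (Gzmk was added), 1 at week 10, 1 for the difference, 2 for the weeks in eGFP mice and 0 in LRG1 mice. Gzmk gave no value for the weeks in LRG1 mice in the fit of those 8 libraries, where it was filtered out.

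Over all genes tested, calls at week 7 numbered 3755, against 5727 in the fit of 8 libraries, 6555 at a threshold of 0.05 and 2239 to 4412 when 1 library was left out. At week 10 they numbered 1854, against 3510 by DESeq2, 12 in the fit of 8 libraries, 1174 with the block, 4761 at 0.05 and 284 to 3647 when 1 library was left out. For the difference they numbered 68, against 268 by DESeq2, 122 by library size, 104 without a filter, 35 with the block, 196 at 0.05 and 40 to 92 when 1 library was left out. For the weeks in eGFP mice they numbered 446, against 1079 by DESeq2, 109 in the fit of 8 libraries, 258 with the block, 1220 at 0.05 and 180 to 479 when 1 library was left out. In LRG1 mice they numbered 2, against 48 by DESeq2, 11 in the fit of 8 libraries, 10 at 0.05, 3 by library size or without a filter, 0 with the block and 0 to 4 when 1 library was left out. Library size scaling also changed the split of calls, to 1136 lower and 320 higher at week 10, against 1092 and 762 with TMM, and to 476 lower and 91 higher for the weeks in eGFP mice, against 315 and 131. Without eGFP replicates 1 and 3 of week 10, 5945 genes were called at week 7, 161 at week 10, 466 for the difference, 2209 for the weeks in eGFP mice and 11 in LRG1 mice. Among the 10 genes the SE was largest for Gzmk, 0.84 at week 7 and 0.89 at week 10, where 1 LRG1 mouse in each week stood far above the others.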
